A study of Caenorhabditis elegans with 2 samples.

Results

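MicroRNA genes were taken as the genes of biotype miRNA whose symbol starts with mir-, or that are named let-7, lin-4 or lsy-6, in the annotation of the Caenorhabditis elegans reference genome WBcel235 (ce11). They numbered 260 of the 46926 annotated genes and 260 of the 261 genes of that biotype. The gene left out, F39B1.3, has no such name. ChIP-seq, which sequences the DNA fragments bound to a precipitated protein, had been run on NHR-237, a protein of the nuclear hormone receptor class of transcription factors. The worms were whole L4 larvae of strain OP228, pooled males and females of unknown age, with the genotype unc-119(ed3) III; wgIs228. The strain is a transgenic line that makes NHR-237 fused at the C terminus to GFP-FLAG, and no promoter of the insertion is named in the labels. The 2 biological replicates formed 1 group, so no condition was compared, and signal from whole animals cannot be placed in a tissue.

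MicroRNAs are short RNAs that an Argonaute protein carries to messenger RNAs, which are then translated less or degraded. A long primary transcript is cut by the Microprocessor (DRSH-1 with PASH-1 in worms) and its hairpin by Dicer (DCR-1), and the seed, the bases near the 5′ end of the mature RNA, largely sets which messages are paired. Genes of a cluster are commonly transcribed together, and a gene inside an intron may share its host's promoter or use its own. In C. elegans lin-4 and the let-7 family time the larval stages, and the mir-35 and mir-51 families are each needed, as a family, for embryos to develop.

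The sequences below are the mir-51 and let-7 families, both of which had a strong region near a member, and the DNA at 3 strong regions. Each mature RNA was read from the WBcel235 genome at its RefSeq coordinates, with the seed (bases 2 to 8) in capitals. The mir-51 family shares the seed ACCCGUA, carried on the 5′ arm of the hairpin in mir-51, mir-52 and mir-53 and on the 3′ arm in mir-54, mir-55 and mir-56.
mir-51-5p: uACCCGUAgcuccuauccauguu
mir-52-5p: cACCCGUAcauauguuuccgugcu
mir-53-5p: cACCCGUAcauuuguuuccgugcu
mir-54-3p: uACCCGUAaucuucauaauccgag
mir-55-3p: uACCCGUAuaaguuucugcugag
mir-56-3p: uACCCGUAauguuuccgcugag

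The let-7 family shares the seed GAGGUAG, and it is shown because a single one of its genes lay within 1000 bp of a strong region.
let-7-5p: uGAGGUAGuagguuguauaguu
mir-48-5p: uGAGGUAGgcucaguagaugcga
mir-241-5p: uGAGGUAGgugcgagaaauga
mir-84-5p: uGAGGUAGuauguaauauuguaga

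The DNA windows reach 100 bp to either side of the summit, the deposited point of highest signal in a region, in WBcel235, and are written on the strand of the miRNA gene. Capitals mark GAGAGA or GGTCA, or the reverse complement of either. The mir-52 window is chrIV:14033858-14034058 on the + strand, and its 3′ end holds the whole of mir-52-5p.
mir-52 window: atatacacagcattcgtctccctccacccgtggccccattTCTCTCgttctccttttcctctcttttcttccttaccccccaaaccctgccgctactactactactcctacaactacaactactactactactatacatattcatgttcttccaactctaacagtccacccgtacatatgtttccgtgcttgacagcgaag
The mir-5549 window is chrIII:6972002-6972202 on the − strand, and it holds the whole of mir-5549-5p.
mir-5549 window: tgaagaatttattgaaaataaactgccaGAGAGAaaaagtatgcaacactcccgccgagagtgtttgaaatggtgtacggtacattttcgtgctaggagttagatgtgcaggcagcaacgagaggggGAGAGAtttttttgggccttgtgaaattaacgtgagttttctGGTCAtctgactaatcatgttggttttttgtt
The window upstream of mir-54, mir-55 and mir-56 is chrX:13145316-13145516 on the − strand, and it holds neither motif and no mature miRNA.
mir-54 window: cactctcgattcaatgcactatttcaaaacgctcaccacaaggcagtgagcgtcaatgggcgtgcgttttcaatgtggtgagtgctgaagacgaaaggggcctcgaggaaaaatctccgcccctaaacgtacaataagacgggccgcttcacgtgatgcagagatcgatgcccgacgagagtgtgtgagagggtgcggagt

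A pooled region was less common at miRNA genes than over whole protein-coding genes and somewhat more common than at protein-coding 5′ ends. The rule asked for a region of the pooled list, made from both replicates together, with its summit within 1000 bp of the gene. It was met by 129 of the 260 genes (49.6%), against a background of 54.2% of all annotated genes, 67.9% of protein-coding genes, 45.2% of protein-coding 5′ ends and 42% of points placed every 200 bp along the nuclear genome. The share was 66.3% for tRNA genes, 67.6% for snoRNA genes and 39% for piRNA genes, which make up 15363 of all genes, and without piRNA genes that of all genes was 61.6%. The rule takes in more DNA at a long gene, and the miRNA genes had a median length of 95 bp. The pooled list holds 26787 regions and, as the authors describe it, includes background as well as peaks, so presence in it says little by itself. Genes were therefore ranked by the strongest region within 1000 bp, rank 1 being the region of highest deposited signal in its list. The signal has no stated scale, and it was used only to order regions within a list.

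Near the top of the list the miRNA genes stood differently, and by how much depended on the background. Of the strongest 1000 pooled regions, 10 lay within 1000 bp of miRNA genes and accounted for 17 of the 260 genes (6.54%), against a background of 3.67% of all genes, 5.04% of genes other than piRNA genes, 5.44% of protein-coding genes and 2.97% of protein-coding 5′ ends. Other small RNA genes gave 6.7% for tRNA genes, 15% for snoRNA genes, 10.9% for snRNA genes and 0.859% for piRNA genes, so the miRNA share stood close to that of tRNA genes and below that of snoRNA genes. The authors' irreproducible discovery rate (IDR) list, from a procedure that compares how the replicates rank regions, holds 237 peaks. They were exactly the first 237 ranks of the pooled list, so the IDR count is a stricter cut of the same ranking. These peaks came near 7 miRNA genes (2.69%) through 4 separate peaks, against 1.02% of all genes, 1.45% of genes other than piRNA genes, 1.35% of protein-coding genes and 0.836% of protein-coding 5′ ends. The IDR share was 1.8% for tRNA genes, 4.62% for snoRNA genes and 5.43% for snRNA genes. With each cluster or single gene counted once, 12 of the 227 loci had one of the strongest 1000 regions and 5 had an IDR peak. The background sets were not counted this way. No test stands behind these shares, since neighbouring genes share regions, and 4 peaks are few.

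**Figure D1:**
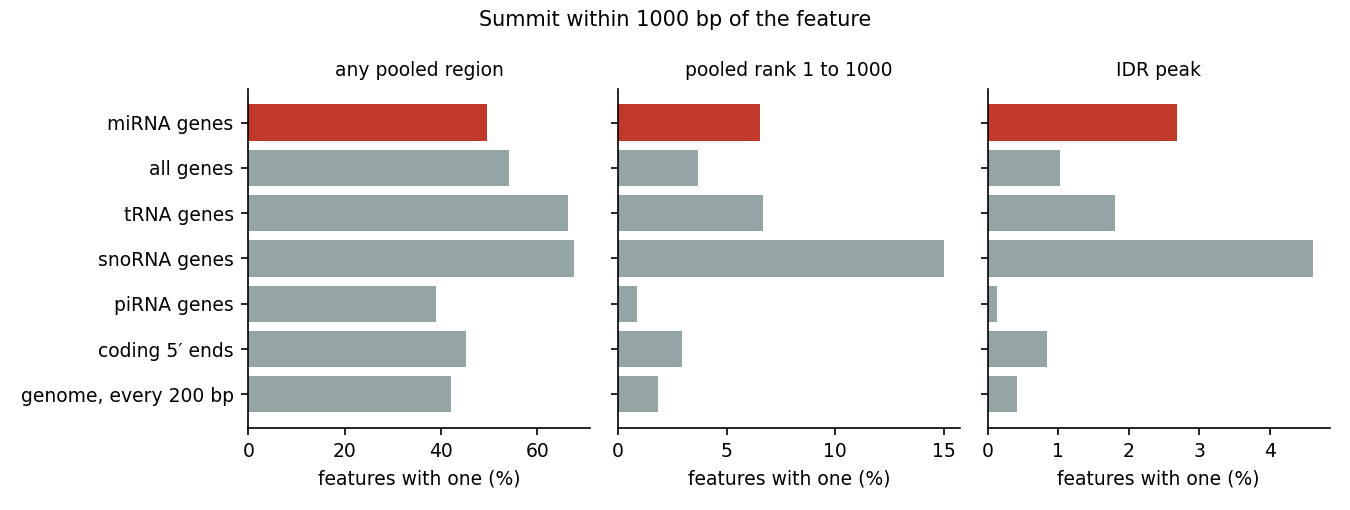
Share of genes (percent, horizontal axes, bars from 0) with a pooled region, a region among the strongest 1000, or an IDR peak within 1000 bp, for miRNA genes and for the background sets. With a pooled region at 49.6% the miRNA genes sit between all genes (54.2%) and coding 5′ ends (45.2%), and in the other 2 panels (6.54% and 2.69%) they sit above both and below snoRNA genes.

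The best pooled rank of the 129 genes with a region had a median of 8996, with quartiles of 2998 and 16214. The median was 10084 over the 25436 genes of any kind with a region, 11307 over protein-coding 5′ ends and 11960 over the points along the genome. It was 8995 over genes other than piRNA genes, level with the miRNA genes, and 8632 over protein-coding genes. Among small RNA genes it was 6649 for tRNA, 5848 for snRNA, 5255.5 for snoRNA and 13265 for piRNA genes. Most of the 129 genes with a region were therefore near weak ones, and 131 miRNA genes had no pooled region within 1000 bp. The strong regions lay at a small group of loci, described next in order of rank. None of the 4 IDR peaks at miRNA genes reached the median signal of the IDR list, 41.7.

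The best ranked gene was mir-1824, inside an intron of Y87G2A.18 on the opposite strand. Its region had rank 129 in the pooled list with a signal of 40.3, rank 254 in replicate 1 and rank 119 in replicate 2. It was strong in both replicates, with summits 19 bp apart. The summit lay downstream of mir-1824, 443 bp from its 5′ end, and 108 bp upstream of the 5′ end of the host gene, so it was as much a region of the host's promoter as of the miRNA.

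mir-52, a member of the mir-51 family, is at chrIV:14034008-14034107 on the + strand and overlaps no protein-coding gene. The region over it, printed above, had rank 151 and a signal of 37.1 in the pooled list, rank 176 and a signal of 25.5 in replicate 1, and rank 637 and a signal of 10.7 in replicate 2. Both replicates placed it among their strongest 1000. The pooled summit was 50 bp upstream of the hairpin's 5′ end, and the replicate 2 summit 51 bp upstream of it, while that of replicate 1 lay inside the hairpin, 63 bp from the 5′ end. The nearest protein-coding 5′ end, of Y37A1B.7, was 9822 bp away, which made mir-52 the IDR locus farthest from a coding start. The window had a GC content of 46.3% and 1 match to GAGAGA.

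mir-5549 is at chrIII:6971976-6972085 on the − strand, between genes. Its region had rank 222 and a signal of 31.9 in the pooled list and rank 85 and a signal of 35.3 in replicate 1, but the best region within 1000 bp in replicate 2 had rank 3503 and a signal of 7.22. The replicate 2 region did not overlap the pooled one, so the strong signal came from replicate 1. The pooled summit was 17 bp upstream of the hairpin's 5′ end and 151 bp upstream of rfc-4, which encodes a subunit of the clamp loader of DNA replication. The window, printed above, holds 2 matches to GAGAGA and 1 to GGTCA, with a GC content of 40.8%.

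The cluster mir-54, mir-55 and mir-56, from the other branch of the mir-51 family, is at chrX:13144691-13145094 on the − strand, in an intron of F09A5.3 on the opposite strand. A further gene, mir-55b, lies antisense to mir-55, so the same region counts for 4 genes. That region had rank 228 and a signal of 31.7 in the pooled list, rank 724 and a signal of 15.8 in replicate 1, and rank 80 and a signal of 21.3 in replicate 2. Here replicate 2 was the stronger, the reverse of mir-5549, and both replicates placed it among their strongest 1000. The pooled summit lay 322 bp upstream of mir-54, the first gene of the cluster, 492 bp upstream of mir-55 and 629 bp upstream of mir-56. It was 3815 bp from the nearest protein-coding 5′ end. The window had a GC content of 53.2%, the highest of the 4 IDR loci.

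The IDR list did not hold the remaining 6 regions of the strongest 1000 at miRNA genes, and most of them were uneven between the replicates. The divergent pair mir-239.1 and mir-239.2 on chromosome X shared a region of rank 273 in the pooled list and rank 231 in replicate 1. In replicate 2 the best ranks were 14238 at mir-239.1 and 16057 at mir-239.2. The region lay between the genes, 336 bp upstream of mir-239.1 and 710 bp upstream of mir-239.2, and its summit was 6 bp from the snoRNA gene C34E11.20. Both genes share the seed UUGUACU with mir-238, which had rank 5059.

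mir-48, of the let-7 family, had the opposite imbalance. Its region on chromosome V had rank 359 and a signal of 26.1 in the pooled list, rank 2136 in replicate 1 and rank 219 in replicate 2. The replicate summits were 15 bp apart, and the pooled summit was 301 bp upstream of the hairpin's 5′ end and 5920 bp from the nearest protein-coding 5′ end, so the place was shared although the rank was not.

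The next locus was the cluster mir-229, mir-64, mir-65 and mir-66 on chromosome III, which shares the seed AUGACAC and lies in an intron of gcn-1. Its region had rank 734 in the pooled list and 537 in replicate 1. In replicate 2 the best rank was 5384, from a region that did not overlap the pooled one. The summit was 311 bp upstream of mir-229, the first gene of the cluster, and 20196 bp from the 5′ end of gcn-1. As at mir-54, 1 region upstream of the first gene stood for the whole cluster.

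The other 3 genes of the strongest 1000 were mir-354, mir-8201 and mir-8194. mir-354, which overlaps an exon of the ribosomal protein gene rps-20, had rank 356 in the pooled list, 414 in replicate 1 and 916 in replicate 2, from a summit 853 bp upstream of it and 156 bp upstream of ekl-4. mir-8201, in an intron of the linker histone gene hil-2, had rank 512 in the pooled list, 1026 in replicate 1 and 9911 in replicate 2. mir-8194 had rank 652 in the pooled list, 1701 in replicate 1 and 8899 in replicate 2. Of these, mir-354 alone was within the strongest 1000 of both replicates.

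Below rank 1000 the values fell off gradually. The next genes were mir-70, in an intron of pmp-5, with rank 1040, mir-80 with rank 1151, mir-90 with rank 1178, and the overlapping pair mir-8186.1 and mir-8186.2 with rank 1187. After them came mir-8196.1 with rank 1227, mir-5595 with rank 1659 and mir-1828 with rank 1812. None of these had a rank in the strongest 1000 of both replicates. The edge of the strongest 1000 thus fell between mir-8194 and the mir-229 cluster on one side, with signals of 21.6 and 20.9, and mir-70 on the other, with 18.8.

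The replicates were compared gene by gene. A region within 1000 bp was found in replicate 1 at 150 genes (57.7%, against 58.2% of all genes) and in replicate 2 at 135 genes (51.9%, against 59.2%). Both replicates had one at 85 genes, replicate 1 alone at 65, replicate 2 alone at 50 and neither at 60. Each replicate's list holds 30000 regions, so a region in a single replicate was common. Over the 78 distinct pairs of best regions, Spearman's rho of the ranks was 0.472, a description across loci that share the 2 libraries.

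The strongest regions of each replicate were then compared. The strongest 1000 regions of replicate 1 came within 1000 bp of 18 genes and those of replicate 2 of 14. In both were 7 genes (2.69%), against 1.34% of all genes and 1.93% of genes other than piRNA genes. The share was 1.94% for protein-coding genes and 0.986% for protein-coding 5′ ends. It was 2.45% for tRNA genes, 6.36% for snoRNA genes and 8.53% for snRNA genes. The 7 miRNA genes were mir-1824, mir-52, mir-354 and the 4 genes at mir-54, on 4 pooled regions. Among the first 237 ranks, the number of IDR peaks, replicate 1 gave mir-5549, mir-52, mir-239.1 and mir-239.2, and replicate 2 gave mir-1824, mir-48 and the 4 genes at mir-54. No gene was in both of those sets, against 0.458% of all genes. Within 1000 bp of the genes at the 4 IDR peaks, the better of the replicate ranks was 80 to 176 and the other 254 to 3503. The rank of 3503, at mir-5549, came from a region that did not overlap the peak.

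**Figure D2:**
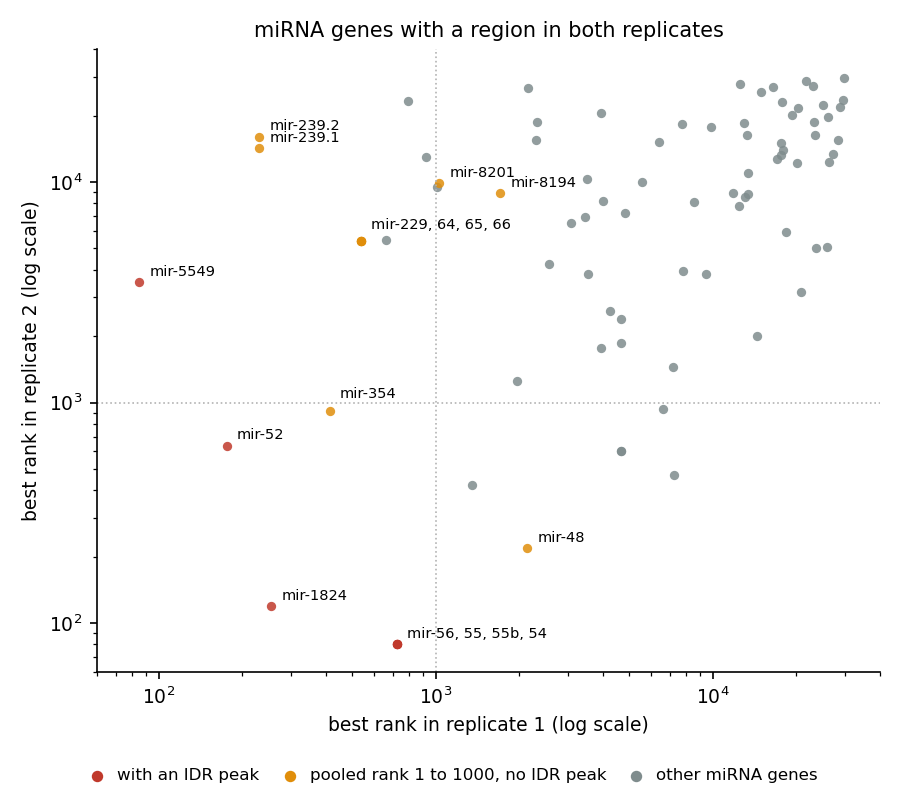
Best rank within 1000 bp in replicate 1 (horizontal, log scale) against replicate 2 (vertical, log scale) for the 85 miRNA genes with a region in both. The 7 genes that have an IDR peak are in red, and the others of pooled rank 1 to 1000 are in orange. The named loci spread to either side of the diagonal, with mir-5549 and the mir-239 pair strong in replicate 1 and mir-48 and the mir-54 cluster strong in replicate 2.

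At many genes the best regions of the replicates were not the same region. Of the 129 genes with a pooled region, 69 also had one in both replicates, and at 36 of these both replicate regions overlapped the pooled one, while at 33 one or both did not. The median distance between the replicate summits was 302 bp over the 69 genes, with a highest of 1581 bp. At the 36 it was 72.5 bp, a distance that the overlap itself keeps small. A pooled region with none in replicate 1 was found at 26 genes and with none in replicate 2 at 40.

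Genes were then classed by their place in the annotation. A cluster was 2 or more miRNA genes on 1 strand with gaps of at most 1000 bp, a host intron gene lay in an intron of a protein-coding gene, and a free-standing gene overlapped no protein-coding gene. Clustered genes had a pooled region at 29 of 50 (58%), host intron genes at 38 of 79 (48.1%), free-standing genes at 55 of 120 (45.8%), and genes overlapping a coding exon at 7 of 11 (63.6%). The classes order differently by median rank, which was 7165 for free-standing genes, 9029 for host intron genes, 11068 for clustered genes and 13137 for those overlapping an exon. In single replicates the share of clustered genes was 66% in replicate 1 and 44% in replicate 2. That spread was wider than the gap to either other main class, so the shares do not place clustered genes. Host intron genes had 58.2% in replicate 1 and 59.5% in replicate 2, and free-standing genes 54.2% and 50%. With a cluster gap of 10000 bp their order in the pooled list was the reverse, 46.6% against 49.0%, and the difference was not tested.

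Clusters counted several times for the same DNA. The 29 clustered genes shared 10 distinct regions, while the 55 free-standing genes had 53. Of the 17 clusters, 8 had a pooled region at one or more genes, and 2, at mir-54 and mir-229, had one in the strongest 1000. Those 2 clusters gave all 7 clustered genes of the strongest 1000. Among host intron genes, the 61 on the strand of their host had a pooled region in 31 cases (50.8%) and the 18 on the opposite strand in 7 (38.9%). The best ranked host intron gene, mir-1824, is of the opposite kind.

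**Figure D3:**
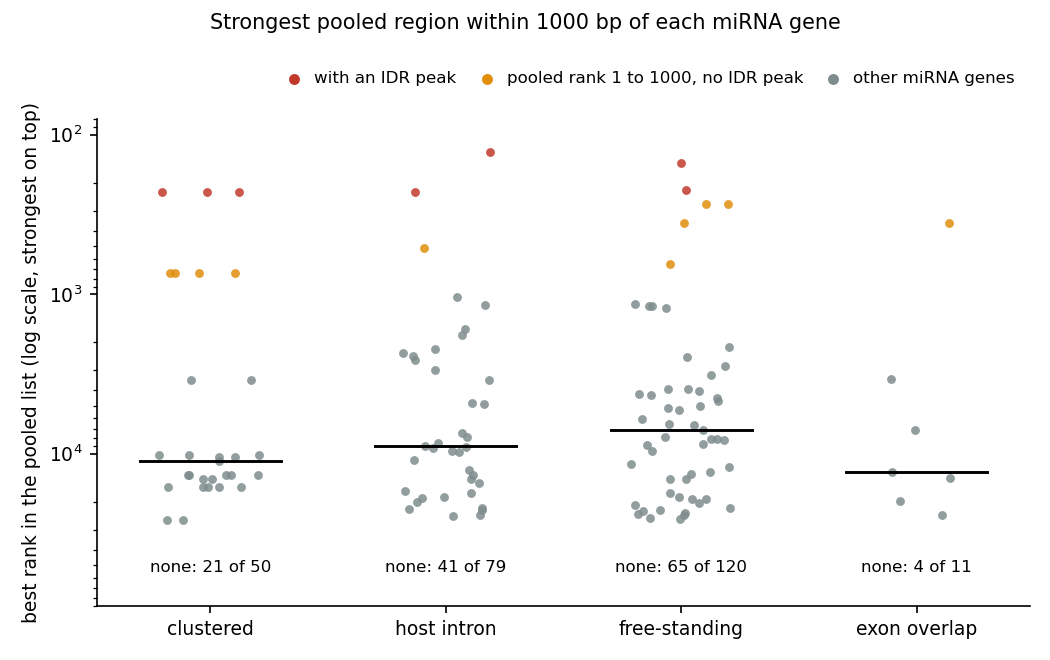
Best pooled rank within 1000 bp (log scale, with low ranks for strong regions) of each miRNA gene with a region, by class, with the median of each class as a bar. The medians run from 7165 (free-standing) to 13137 (exon overlap), and each class holds both strong and weak regions.

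By chromosome, a pooled region lay near 20 of 27 miRNA genes on III (74.1%), where 70.4% of all genes had one, and near between 42% and 57.6% of those on the other chromosomes, where 44.6% to 66% of all genes did. The strongest 1000 regions gave 5 miRNA genes on III, against 6.97% of all genes there, through 2 regions, at mir-5549 and the mir-229 cluster. They gave 6 of 73 on X, against 4.97%, also through 2 regions, and none of 49 on II, against 4.45%, where the best rank was 1187.

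Families were described through 6 lists of genes. The lists left out mir-795, which also carries the let-7 seed, and mir-63, which also carries the mir-64 seed. They also left out mir-58.2, mir-58c and mir-2209.1, which carry the seed of mir-80, mir-81 and mir-82 and had no pooled region within 1000 bp. Neither mir-795 nor mir-63 had a pooled region or a replicate 2 region within 1000 bp, and their replicate 1 ranks were 10438 and 22642. The mir-51 family had the strongest regions of the 6 families listed. Its members lie at 3 places, and 5 of the 6 genes had a pooled region, on 3 distinct regions. mir-52 and the mir-54 cluster gave the 2 IDR peaks described above. mir-53, at the third place, on chromosome IV, had rank 2487 in the pooled list, 4262 in replicate 1 and 2596 in replicate 2, from a summit 70 bp upstream of its hairpin. Its neighbour mir-51 had no pooled summit nearer than 1649 bp, although the replicates had regions of rank 2568 and 4260 within 1000 bp of it. The family was therefore not uniform, and its ranks ran from 151 at mir-52 to 2487 at mir-53.

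Among the 4 listed let-7 family genes, mir-48 alone was within 1000 bp of a strong region. mir-241, next to mir-48 on chromosome V, had rank 4309 in the pooled list, 3452 in replicate 1 and 6973 in replicate 2. The mir-48 region, of rank 359, was 1378 bp from mir-241. let-7 itself, annotated with a primary transcript of 1732 bp, had rank 13137 in the pooled list, 4026 in replicate 1 and 8244 in replicate 2. mir-84 had no pooled region within 1000 bp and ranks of 28216 and 15479 in the replicates. A stronger region lay farther from let-7, with rank 327 in the pooled list and a signal of 26.9, at 1849 bp upstream of its 5′ end and 133 bp upstream of the protein-coding gene C05G5.2. Its overlapping replicate regions had rank 359 in replicate 1 and 1823 in replicate 2. let-7 was one of 13 miRNA genes (5%) with a region of the strongest 1000 at 1000 to 2000 bp and none nearer. The share was 1.48% of all genes, piRNA genes included.

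lin-4, the founding miRNA of the larval timing pathway, lies in an intron of F59G1.4 and had rank 14512 in the pooled list, 7731 in replicate 1 and 18343 in replicate 2. mir-237, which shares its seed CCCUGAG, had rank 3952 in the pooled list, 9903 in replicate 1 and no region in replicate 2. lsy-6, which sets a left-right difference between taste neurons, had no region within 1000 bp in any of the 3 lists. None of the 3 was near a strong region.

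The mir-35 family, with the seed CACCGGG, had only weak regions within 1000 bp. With a limit of 2000 bp the best pooled rank was 2522 for each of mir-35 to mir-41. The 7 genes mir-35 to mir-41 form the largest cluster and had best ranks of 16214 or 26186 in the pooled list, with no region in replicate 2, and mir-42 had no pooled region. Among the listed genes of the mir-58 family, mir-80 had rank 1151, mir-58.1 rank 2998, mir-82 rank 4829 and mir-81 none. The replicate ranks of mir-58.1, 1346 in replicate 1 and 421 in replicate 2, came from different regions. The replicate 1 summit was 652 bp downstream of its 5′ end and the replicate 2 summit 357 bp upstream, 1009 bp apart, and the replicate 1 region did not overlap the pooled one. The bases 2 to 8 of mir-58.1 (GAGAUCG) differ from those of mir-80, mir-81 and mir-82 (GAGAUCA) in the last base. The listed let-7 and mir-51 genes thus had regions both inside and outside the strongest 1000, while the listed mir-64 genes shared 1 region. A tie between family and rank was not measured.

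**Figure D4:**
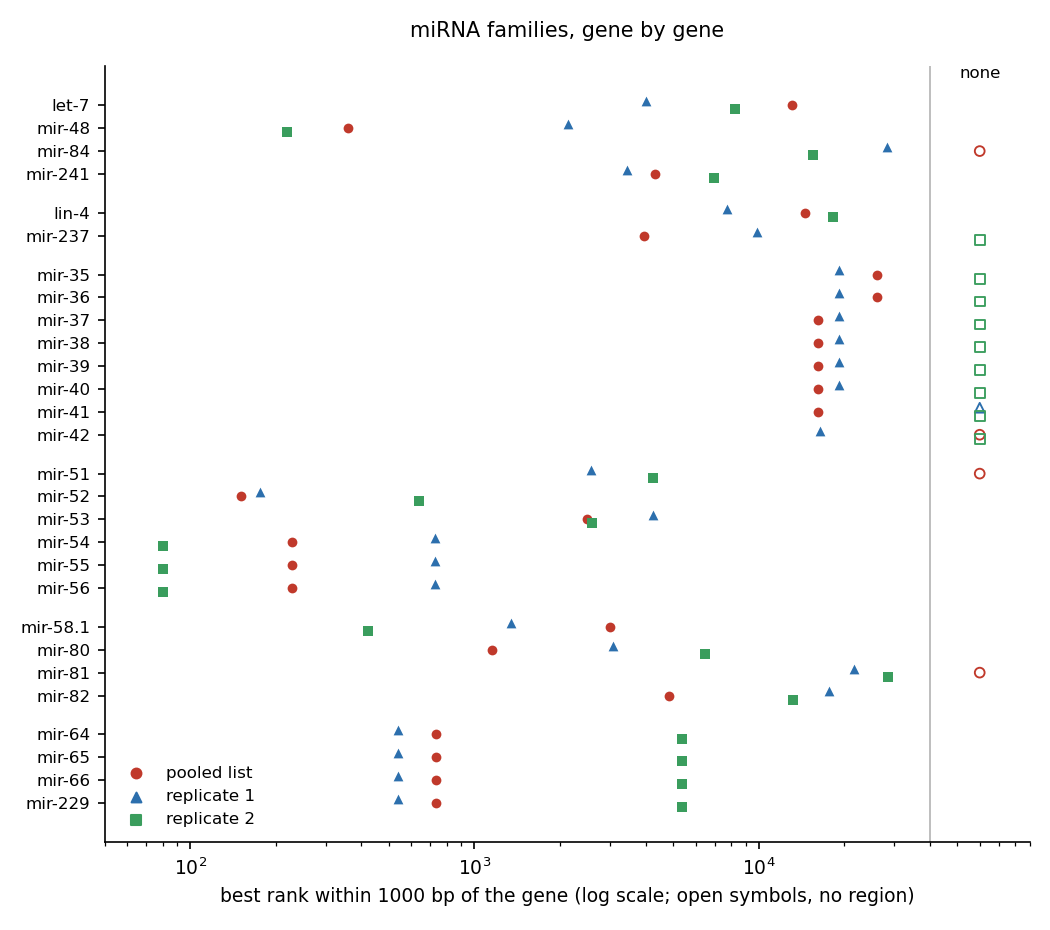
Best rank within 1000 bp (log scale, low ranks for strong regions) of each gene listed for the 6 families in the pooled list and in each replicate. Among the listed genes, the mir-51 and mir-64 families hold the ranks under 1000 other than mir-48 and the replicate 2 rank of mir-58.1, and the mir-35 family has no rank better than 16214.

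The side of each summit and its distance to a coding 5′ end were measures that the choice of genes and regions had not used. Its distance to the miRNA gene was limited to 1000 bp by the rule. Of the 10 distinct regions in the strongest 1000, 8 were upstream of the nearest miRNA gene on its strand, 2 downstream and none inside it, at a median of 331 bp from the gene. Of the 96 weaker ones, 44 were upstream, 2 inside and 50 downstream, so these were split about evenly between the sides. Protein-coding promoters, taken as 1000 bp upstream to 200 bp downstream of a coding transcript's 5′ end, held 3 of the 10 (30%). The share was 47.6% over all strongest 1000 regions on nuclear chromosomes and 56.3% over nuclear IDR peaks. The median distance to a coding 5′ end was 2720 bp for the 10 and 806.5 bp for all strongest 1000. These differences rest on 10 regions and were not tested.

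**Figure D5:**
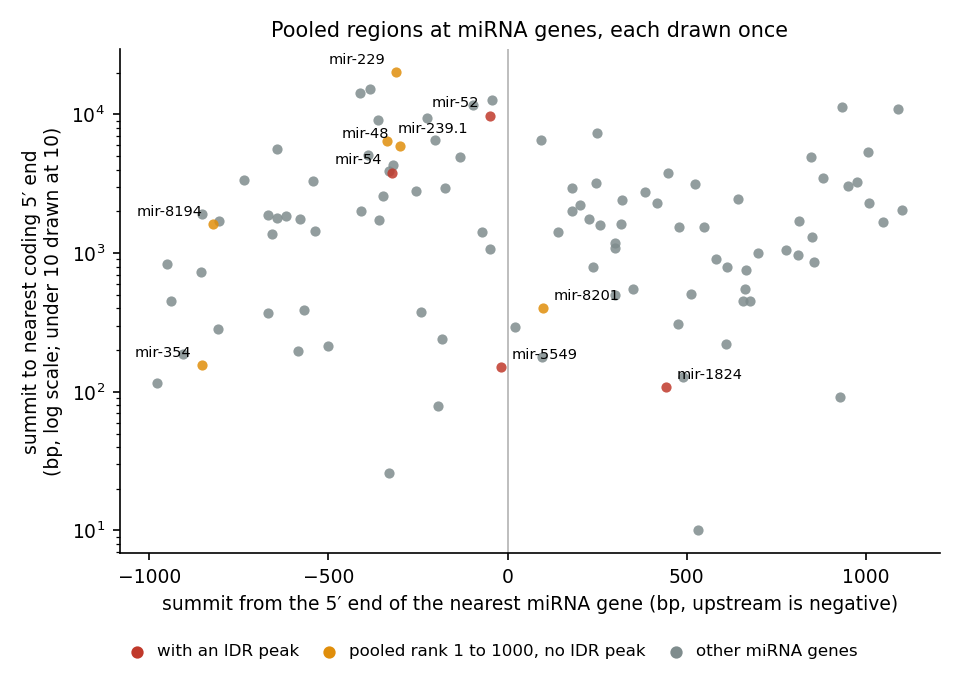
Signed distance from the miRNA gene's 5′ end to the summit (horizontal, bp, negative upstream) against distance from the summit to the nearest protein-coding 5′ end (vertical, bp, log scale, with distances under 10 bp drawn at 10), for the 106 distinct pooled regions at miRNA genes. The 10 regions of the strongest 1000 are coloured, and 8 of them lie on the upstream side.

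The median GC content of windows of the size printed above was 41.8% at the 10 strong regions and 36.6% at the 96 weaker ones, against 41.5% and 35.3% for the strongest 1000 and for all nuclear pooled regions. GAGAGA or its reverse complement was in 22 of the 106 windows (20.8%), against 13.4% of all nuclear pooled windows and 34.4% of the strongest 1000. GGTCA, the core sequence bound by many nuclear receptors, was in 16 windows (15.1%), against 17.1% of all, counting both strands. CTGCGTC was in 3 windows, against 2.68% of all, and TGATAA, the core of GATA factor sites, in 14 (13.2%), against 16.6%. The windows at miRNA genes were thus close to the list as a whole in GGTCA and TGATAA. No motif searched contains another, and a match describes the sequence only.

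The genes of the miRNA pathway were read by the same rule with the distance taken from the annotated 5′ end. Of the 12 listed, 9 had a pooled region within 1000 bp, 5 had one in the strongest 1000 and 2 had an IDR peak, while 45.2%, 2.97% and 0.836% of all protein-coding 5′ ends did. The 12 were chosen with earlier results of these data known, so the counts cannot be read as an enrichment of the pathway. The IDR peaks were at ain-1, one of the worm GW182 proteins that link Argonaute to silencing, and nhl-2, a cofactor of the miRNA complex. ain-1 had rank 60 in the pooled list with a signal of 63.3, rank 74 in replicate 1 and rank 48 in replicate 2, at 936 bp upstream. nhl-2 had rank 47 with a signal of 74.7, rank 44 in replicate 1 and rank 94 in replicate 2, at 834 bp upstream, and that summit was nearer to the gene tag-340. Both ranked above every region within 1000 bp of an miRNA gene in the pooled list.

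The other 3 in the strongest 1000 were lin-28, alg-2 and cgh-1. lin-28, whose protein binds let-7 precursors, had rank 484 in the pooled list, 468 in replicate 1 and 1611 in replicate 2, with the summit 21 bp upstream of the 5′ end of one of its transcripts. alg-2, an Argonaute, had rank 905 in the pooled list, 693 in replicate 1 and 6761 in replicate 2. cgh-1, an RNA helicase of silencing granules, had rank 843 in the pooled list and 862 in replicate 1, with none in replicate 2. The second GW182 gene, ain-2, had rank 1141. Among the processing enzymes, pash-1 had rank 1812, drsh-1 rank 12252 and the Dicer partner rde-4 rank 22106, and no pooled region lay within 1000 bp of dcr-1, alg-1 or xrn-2. The pash-1 region was also that of mir-1828, which lies in an intron of pash-1.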

How the data were processed

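Narrow peak lists on ce11 were analysed for the pooled data, for each of 2 replicates and for the IDR set. The region signal is the authors' deposited value, whose scale is not stated in the labels or files, and the deposited −log10 q values, which have many ties, were not used for ranking. Per the text files deposited with the samples, the IDR list derives from the pooled and replicate lists. No aligner, peak caller, threshold or use of a control is named in the labels or files (not given in the sources used here). Without read counts the depth is unknown. The deposited summit offset, another kind of value than a score, gave each position.

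Regions were ranked by signal and joined to Ensembl release 115 genes (WBcel235) by summits within 1000 bp, with Python 3.11.15, NumPy 2.4.6 and SciPy 1.17.1. Symbols and mature coordinates came from RefSeq by WormBase identifier. All 260 genes matched, and 257 took their name from RefSeq and 3 (mir-55b, mir-58c and mir-12134) from Ensembl. The joins were checked on simulated lists. No test was run, because there is 1 group and genes are not replicates. The members, families and pathway list were chosen with earlier results of these data known. Named were genes with an IDR peak, the 25 with the best pooled rank, those in both replicates' strongest 1000, the 6 families, let-7, lin-4, lsy-6 and the pathway genes. The choice of mir-238 and of the genes in the closing section followed their values. Alternatives were other distances, any base of a region, upstream only, loci, other rank limits, single replicates and other definitions of a class. The ce10 lists were not used.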

Additional observations from a re-analysis of the deposited data

How the results depend on the processing

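The count of 129 miRNA genes with a pooled region was 75 with a limit of 500 bp and 84 with upstream and gene body only, and 135 to 150 in single replicates. The 17 genes near the strongest 1000 regions were 10 at 500 bp, 30 at 2000 bp, 11 with the strongest 500 regions and 14 to 18 in single replicates. The 7 genes with an IDR peak were 12 at 2000 bp, 0 with the peaks at or above the median IDR signal, and 4 to 6 with as many of the strongest regions of a single replicate, the 4 without replicate 2. The median rank of 8996 was 6141.5 at 2000 bp and 10025 to 13306 in single replicates, the higher without replicate 2. With a cluster gap of 10000 bp the share of host intron genes with a pooled region went from 48.1% to 46.6% and that of free-standing genes from 45.8% to 49.0%, and with hosts on the same strand only the host intron share was 50.8%, each further than 1 SD of the replicates. In single replicates the shares were 44% to 66% for clustered, 58.2% to 59.5% for host intron and 50% to 54.2% for free-standing genes. Leaving out the 3 genes named by Ensembl alone, chosen after seeing the data, gave 127, 16 and 6. Counting each cluster or single gene once gave 108, 12 and 5. Of the single-gene ranks named, 140 alternatives stayed within 1 SD of the 2 replicates and 63 moved further. Alternatives under which a gene had no region were left out of both counts. The single replicates that set the SD were themselves among the alternatives, and the SD was taken as 0 where a replicate had no region. The counts therefore do not measure how stable the ranks were. For these changes the cause was not tested. No paired analysis was possible because there is 1 group. With 2 replicates, no read counts and no control used here, neither counting error nor signal common to any ChIP could be measured.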

Other observations

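Between 1000 and 2000 bp from the gene, 13 further miRNA genes (5%) had one of the strongest 1000 pooled regions, on 12 distinct regions. The share of all genes with such a region at that distance and none nearer was 1.48%. That background includes the piRNA genes, which were seldom near strong regions. No share without them, or for another gene set, was counted at this distance. The strongest was 1296 bp upstream of mir-2221, with rank 45 in the pooled list and a signal of 76.8, and its overlapping replicate regions had rank 33 in replicate 1 and 64 in replicate 2. That was stronger in all 3 lists than any region within 1000 bp of a miRNA gene, and the nearest protein-coding 5′ end, of F56C3.1, was 2234 bp away. The cluster of mir-2212 and mir-1819 had a region of rank 106 downstream, with rank 246 in replicate 1 and 57 in replicate 2. The region 1177 bp upstream of mir-71, an miRNA known in worms for its role in lifespan, had rank 197, with rank 313 in replicate 1 and 1442 in replicate 2, inside the host gene ppfr-1 and 8387 bp from its 5′ end. These 4 genes and mir-2216 were those with an IDR peak at this distance. The region 1850 bp upstream of mir-34 had rank 799, with rank 1030 in replicate 1 and 6419 in replicate 2.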
